A study of Homo sapiens with 16 samples.

Results

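The genes for the proteins of the cytosolic ribosome were followed in human embryonic stem cells with and without bone morphogenetic protein 4. Members were taken by symbol: every gene whose whole array symbol is RPL or RPS and a number, with at most 1 further letter (A, X or L) and number, and RPSA, RPLP0, RPLP1 and RPLP2, with pseudogenes and Y-linked genes left out. Of 20046 genes named on the array, 75 met the rule, 49 of the large subunit and 26 of the small, on 124 probes. Each gene was read from its brightest probe, and 72 genes (46 large, 26 small) passed the filter on low signals. RPL10, RPL10L and RPL22L1 lay at background on every array, with deposited intensities of 107 to 128 against a detection floor of 134.

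The cells were of the established human embryonic stem cell line H1, grown without feeder cells on Matrigel, a basement membrane extract, in the defined medium mTeSR. They received either nothing or BMP4, a secreted TGF-beta family factor that drives such cells out of pluripotency, at 100 ng/ml, in a course of 8 days. Total RNA was hybridised to Illumina bead arrays, 1 array for each arm on each of days 0 to 7, so each arm has 8 arrays and no day has a replicate. The labels name a day 0 array in each arm and do not say how those 2 cultures differed, nor whether the days were separate cultures. Days 1 to 3 were pooled as an early window (3 arrays per arm) and days 4 to 7 as a late window (4 arrays per arm). The p-values therefore measure the spread between days, which may be technical and holds any trend within a window.

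Ribosomal proteins assemble with ribosomal RNA into a small subunit, which reads the mRNA, and a large subunit, which joins amino acids into protein. The subunits enter a ribosome in equal numbers, and proteins made without a partner are degraded. Their mRNAs are among the most abundant in growing cells, and many begin with a 5′-terminal oligopyrimidine tract (TOP), a C at the first base followed by a run of C and T, through which TOR signalling controls their translation. Unassembled RPL5 and RPL11 bind MDM2 and stabilise p53, and inherited loss of 1 copy of several of these genes causes Diamond-Blackfan anaemia, a failure of red cell formation.

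The start sites of some of the genes on which the results turn are shown because the tract is the feature the family shares and the rule did not use. The sequences are from RefSeq on GRCh38.p14, 10 bases before the annotated start and 20 from it, in the direction of transcription, and capitals mark a tract that begins at the start. Where several starts are annotated, the one with the longest tract is shown. Of the 72 genes tested, 60 were matched in the RefSeq promoter table. RPL7, RPL23, RPL37 and RPL5, with some of the largest falls, were not matched and cannot be shown. The first 4 genes are among the 7 members whose slope over the days declined under BMP4. RPS28 was lower than in untreated cells in both windows. The next 3 were higher in the late window, and RPL26L1 is a paralogue without a tract.
RPL34 (chr4:108620566-108620595, plus strand): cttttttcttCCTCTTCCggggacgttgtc
RPS7 (chr2:3575250-3575279, plus strand): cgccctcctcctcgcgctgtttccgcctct
RPL29 (chr3:51995876-51995905, minus strand): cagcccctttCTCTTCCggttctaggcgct
RPS21 (chr20:62387093-62387122, plus strand): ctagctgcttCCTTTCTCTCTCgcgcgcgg
RPS28 (chr19:8321486-8321515, plus strand): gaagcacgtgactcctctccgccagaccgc
RPL27A (chr11:8682782-8682811, plus strand): gaaggccttcCTTTTTCgtctgggctgcca
RPS10 (chr6:34426050-34426079, minus strand): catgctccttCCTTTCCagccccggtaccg
RPLP2 (chr11:809957-809986, plus strand): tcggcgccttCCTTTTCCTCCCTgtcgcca
RPL26L1 (chr5:172958719-172958748, plus strand): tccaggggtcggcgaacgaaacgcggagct

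A tract was counted where C at the annotated start was followed by at least 4 bases that are each C or T, on the sense strand only. It was present in 42 of the 60 genes (70.0%), against 5.14% of all 27305 genes in the table and 6 of 68 genes for mitochondrial ribosomal proteins (8.82%). RPS7 has only 3 such bases at its annotated start and RPS28 none, though a run of C and T lies beside the start in both. Among the matched genes, the share with a tract was much the same whichever way a gene went in the late window. It was found in 11 of 15 members called higher under BMP4 (73.3%), in 16 of 23 called lower (69.6%) and in 15 of 22 that did not pass (68.2%), as a description with no test. All 15 members called higher were matched but only 23 of the 30 called lower, and RPL7, RPL23, RPL37 and RPL5 are among those missing. In the 300 bases from 250 before the start to 50 after it, the core of the ETS factor site, CCGGAAG on either strand, was found in 22 genes (36.7%, against 12.2% of all genes). TATAAA on either strand was found in 4 (6.67%, against 14.0%). Genes named on the array stood at 16.5% for the ETS core and 12.3% for TATAAA. Genes for mitochondrial ribosomal proteins stood at 42.6% and 4.41%, so neither share is particular to the members.

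Across the series, sorted intensities differed between arrays by at most 0.00215 on the log2 scale, so a probe's deposited intensity stands for its rank on the array. All 10 named stem cell markers were above the floor on every array of both arms, and 9 of 10 were lower in the late window, with SOX2 at -3.69 (log2). Of 15 markers of differentiated cells, 2 were above the floor on every untreated array and 5 on none. Their summed intensity was 1892 to 2793 in untreated cells and 1923 to 30483 under BMP4, and the part of this change of cell state in the results below was not tested. In bulk RNA, fewer cells of a type and less RNA per cell cannot be told apart.

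Ribosomal protein genes differed between the arms in both directions, by small amounts for most. Higher and lower here mean BMP4 against untreated arrays of the same window, not against day 0. In the early window 11 of 72 members were higher (16.1% of all 13395 genes tested were) and 15 were lower (13.3% of all genes). In the late window 15 were higher (27.3% of all genes) and 30 were lower (26.6% of all genes). Here and below a call is a Benjamini-Hochberg adjusted p under 0.05 from limma, a linear model with moderated variances, over all genes tested. Levels are log2 of the background-corrected intensity plus an offset of 16, which pulls in the changes of dim genes. The median member changed by -0.05 early and -0.10 late, against 0.04 and 0.00 for all genes. All BMP4 arrays lay below all untreated arrays of the window for 22 members early and 22 late (19.3% and 23.1% of all genes). They lay above for 18 and 16 members (23.8% and 24% of all genes). Where arms are said below not to overlap, these shares apply.

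Most member changes were under 2-fold. Past the threshold and at least 2-fold lower were 4 members early (2.83% of all genes) and 3 late (7.06% of all genes), and no member was 2-fold higher in either window (4.11% and 9.62% of all genes were). The calls of the windows overlapped: 9 members were higher in both, 14 were lower in both, 24 passed in neither and none turned from one direction to the other. The windows share no array but compare the same arms, which differed on day 0 for some members (below). The share of all genes with like calls in both windows was not counted, so this overlap is only a description.

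**Figure D1:**
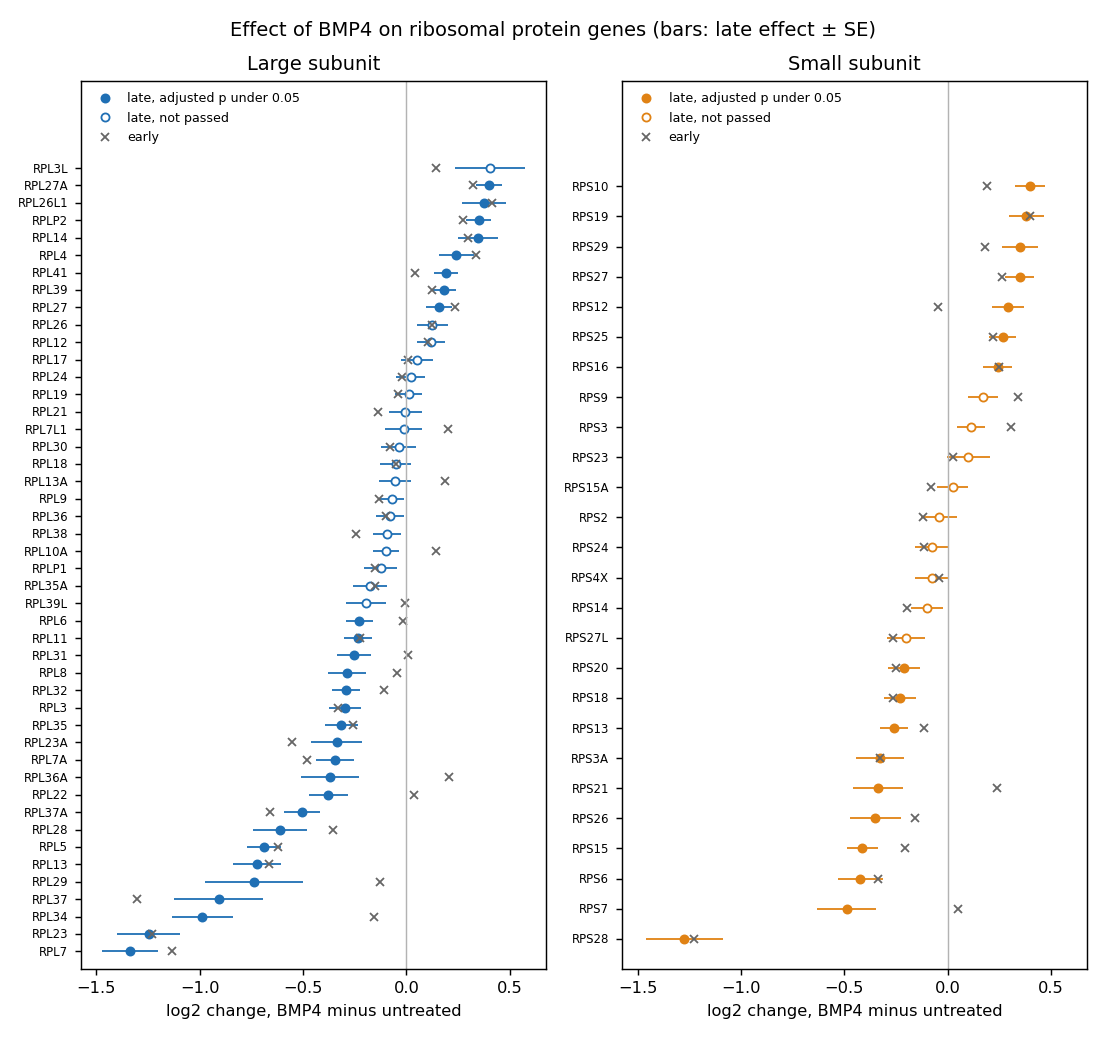
Log2 change between BMP4 and untreated cells for the 46 large and 26 small subunit genes, sorted by the late change. Circles with bars are the late effect ± SE (filled where the adjusted p is under 0.05) and crosses are the early effect; RPL7, RPL23 and RPS28 lie below -1.2 late, and no member called higher exceeds 0.40.

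Both subunits held members called higher and lower. Early, 5 of 46 large subunit genes were higher and 12 lower, or 26.1% lower, and 6 and 3 of 26 small subunit genes, or 11.5% lower, where 13.3% of all genes were lower. The median early change was -0.05 for the large subunit and -0.06 for the small, so the counts and the medians did not order the subunits the same way. Late, 8 large subunit genes were higher and 20 lower (43.5%), and 7 and 10 small subunit genes (38.5%), where 26.6% of all genes were lower. The median late change was -0.11 for the large subunit and -0.08 for the small. The difference between the subunits was not tested.

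By day, each gene was set against its own mean over the 16 arrays and the subunit's genes were averaged. The large subunit mean in untreated cells was -0.06 on day 0, 0.05, 0.05 and 0.13 on days 1 to 3 and 0.10, 0.13, 0.09 and 0.11 on days 4 to 7. Under BMP4 it was -0.04 on day 0, -0.09, -0.08 and -0.00 on days 1 to 3 and -0.07, -0.13, -0.07 and -0.10 on days 4 to 7. The arms were close on day 0 and did not overlap from day 1 on. Every later untreated value lay above the untreated day 0 value, while the BMP4 values lay on both sides of theirs.

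The small subunit mean in untreated cells was -0.00 on day 0, 0.02, 0.02 and 0.07 on days 1 to 3 and 0.03, 0.07, -0.03 and 0.05 on days 4 to 7. Under BMP4 it was 0.03 on day 0, -0.04, -0.02 and 0.02 on days 1 to 3 and -0.03, -0.04, -0.06 and -0.07 on days 4 to 7. Here the early arms did not overlap by a narrow margin, with BMP4 day 3 at 0.0164 and the lowest untreated arrays at 0.0166 and 0.0176. They overlapped in the late window, through untreated day 6 and BMP4 day 4.

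The large subunit mean minus the small subunit mean was 0.04 ± 0.02 in untreated cells and -0.04 ± 0.02 under BMP4 in the early window (SD, n = 3 arrays). In the late window it was 0.07 ± 0.03 and -0.04 ± 0.03 (SD, n = 4 arrays). The balance under BMP4 minus that in untreated cells was -0.09 early and -0.12 late, with no overlap between the arms in either window. The same balance on day 0, with no replicate, was -0.06 in untreated cells and -0.08 in the BMP4 arm. Both day 0 values lay within the range of the later BMP4 arrays, -0.08 to -0.01. Every later untreated array lay above them, at 0.03 to 0.11. The arms thus separated as the untreated balance rose from its day 0 value, while the BMP4 balance stayed near its own or above it. The separation of the arms depended on the use of means. With medians, which give the few strongly lower genes less weight, the balance was 0.00 ± 0.03 untreated and -0.04 ± 0.03 under BMP4 early (SD, n = 3 arrays) and 0.04 ± 0.04 and -0.04 ± 0.03 late (SD, n = 4 arrays). The difference was then -0.04 early and -0.07 late, and the arms overlapped in both windows.

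**Figure D2:**
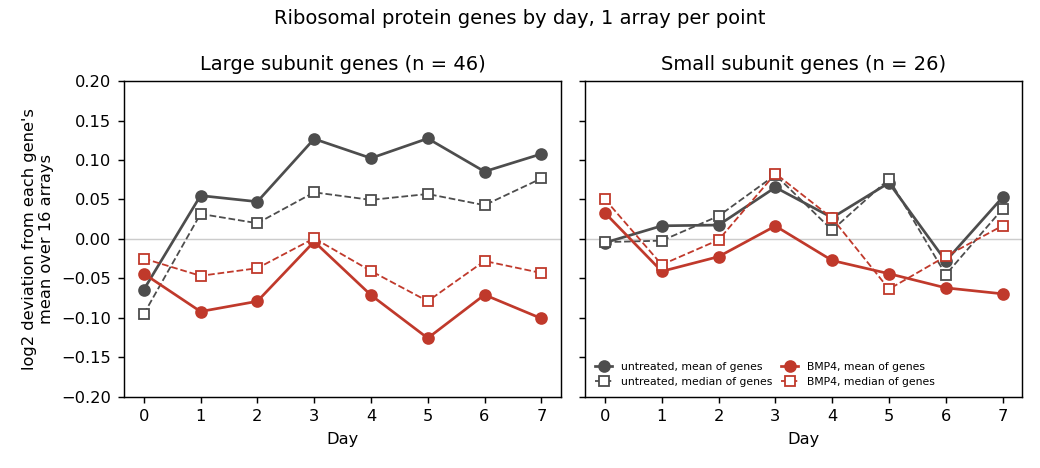
Deviation of ribosomal protein genes from their own mean over 16 arrays (log2), by day, for the large (left, n = 46) and small (right, n = 26) subunit; each point is 1 array, circles are means over genes and squares medians. Large subunit means are 0.05 to 0.13 in untreated cells on days 1 to 7 and -0.13 to -0.00 under BMP4.

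RPL7, RPL23, RPS28 and RPL37 were the members furthest below untreated cells in the early window. RPL7, a large subunit protein, was at 9.94, 9.91 and 9.97 in untreated cells on days 1 to 3 and at 8.69, 8.83 and 8.90 under BMP4. On days 4 to 7 it was at 10.18, 10.49, 10.08 and 9.77 untreated and 8.63, 8.64, 9.07 and 8.82 under BMP4. No BMP4 array reached any untreated array of its window, and the change between the arms was -1.13 ± 0.16 (log2, SE; adjusted p = 6.62e-05) early and -1.34 ± 0.14 late (adjusted p = 4.42e-07), a late fold of 2.53. On day 0 RPL7 was at 9.08 untreated and 8.86 under BMP4, so the BMP4 arm stayed near its own day 0 level while every later untreated array lay above its own.

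RPL23 lies on the face of the large subunit that meets the small one and is a binding site of EIF6. It was at 11.63, 11.32 and 11.90 untreated and 10.50, 10.14 and 10.52 under BMP4 on days 1 to 3. Late it was at 12.04, 12.03, 11.63 and 11.34 untreated and 10.55, 10.35, 10.63 and 10.52 under BMP4. The arms did not overlap in either window, and RPL23 changed by -1.23 ± 0.18 early (adjusted p = 8.89e-05) and by -1.25 ± 0.15 late (adjusted p = 3.28e-06). Both day 0 arrays, at 10.82 and 10.84, lay below every later untreated array.

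RPS28, a small subunit protein at the exit of the mRNA channel, was at 11.30, 11.22 and 11.93 untreated and 10.20, 10.06 and 10.53 under BMP4 in the early window. Late it was at 11.65, 12.19, 11.87 and 11.43 untreated and 10.06, 10.76, 10.69 and 10.53 under BMP4. Every BMP4 array was below every untreated array of its window. The change was -1.23 ± 0.21 early (adjusted p = 4.64e-04) and -1.27 ± 0.19 late (adjusted p = 2.09e-05), and RPS28 was the small subunit gene with the largest change in both windows.

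RPL37, a zinc-binding large subunit protein, was at 8.60, 8.27 and 9.20 untreated and 7.40, 7.20 and 7.56 under BMP4 early, a change of -1.30 ± 0.25 (adjusted p = 9.49e-04). Late it was at 8.61, 9.07, 8.75 and 8.47 untreated and 7.22, 7.76, 8.09 and 8.20 under BMP4, a change of -0.91 ± 0.22 (adjusted p = 0.00188). The arms already differed by -1.27 on day 0, with 8.32 untreated and 7.05 under BMP4. Within the BMP4 arm RPL37 rose by 0.15 ± 0.04 per day (adjusted p = 0.00418) and its last values neared the untreated ones.

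The other members far below untreated cells in the early window were large subunit genes. RPL5 and RPL11 form the 5S ribonucleoprotein with the 5S RNA, and both were lower in both windows. RPL5 was at 12.41, 12.33 and 12.58 untreated and 11.82, 11.72 and 11.92 under BMP4 early, and at 12.52, 12.63, 12.40 and 12.52 against 11.86, 11.85, 11.87 and 11.73 late. Its arms did not overlap, and the change was -0.62 ± 0.09 early (adjusted p = 1.30e-04) and -0.69 ± 0.08 late (adjusted p = 2.03e-06). RPL11, on a probe among the brightest of the array, changed by -0.23 ± 0.08 (adjusted p = 0.0413) and -0.23 ± 0.07 (adjusted p = 0.00833), also without overlap. Its other detected probe, in limma over all detected probes, did not pass early (-0.12, adjusted p = 0.305). That probe was lower late (-0.19, adjusted p = 0.0260).

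RPL13, mutated in a skeletal dysplasia, was lower by 0.66 on the log2 scale early (levels 10.01, 9.98 and 10.35 untreated, 9.47, 9.41 and 9.47 under BMP4; adjusted p = 0.00152). Its late change was -0.72 ± 0.12 (adjusted p = 6.21e-05), and the arms did not overlap in either window. When its 2 detected probes were averaged the early call was lost (-0.39, adjusted p = 0.0792), as it was on the dimmer probe (-0.11, adjusted p = 0.770), and the late call on the dimmer probe (-0.41, adjusted p = 0.0927). RPL37A, a zinc-binding protein, had levels of 14.46, 14.13 and 14.32 untreated and 13.61, 13.61 and 13.72 under BMP4 early, and its change was -0.66 ± 0.10 (adjusted p = 1.57e-04) and late -0.51 ± 0.09 (adjusted p = 1.19e-04). Its early call was lost when 2 probes were averaged (-0.33, adjusted p = 0.0792) and on the dimmer one (-0.00910, adjusted p = 0.984). RPL23A, at the mouth of the tunnel through which the new protein leaves, changed by -0.56 ± 0.14 early (adjusted p = 0.00762) and -0.34 ± 0.12 late (adjusted p = 0.0297). Its untreated day 7 array, at 9.32, lay within the BMP4 range of 9.26 to 9.48, so its late arms overlapped.

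**Figure D3:**
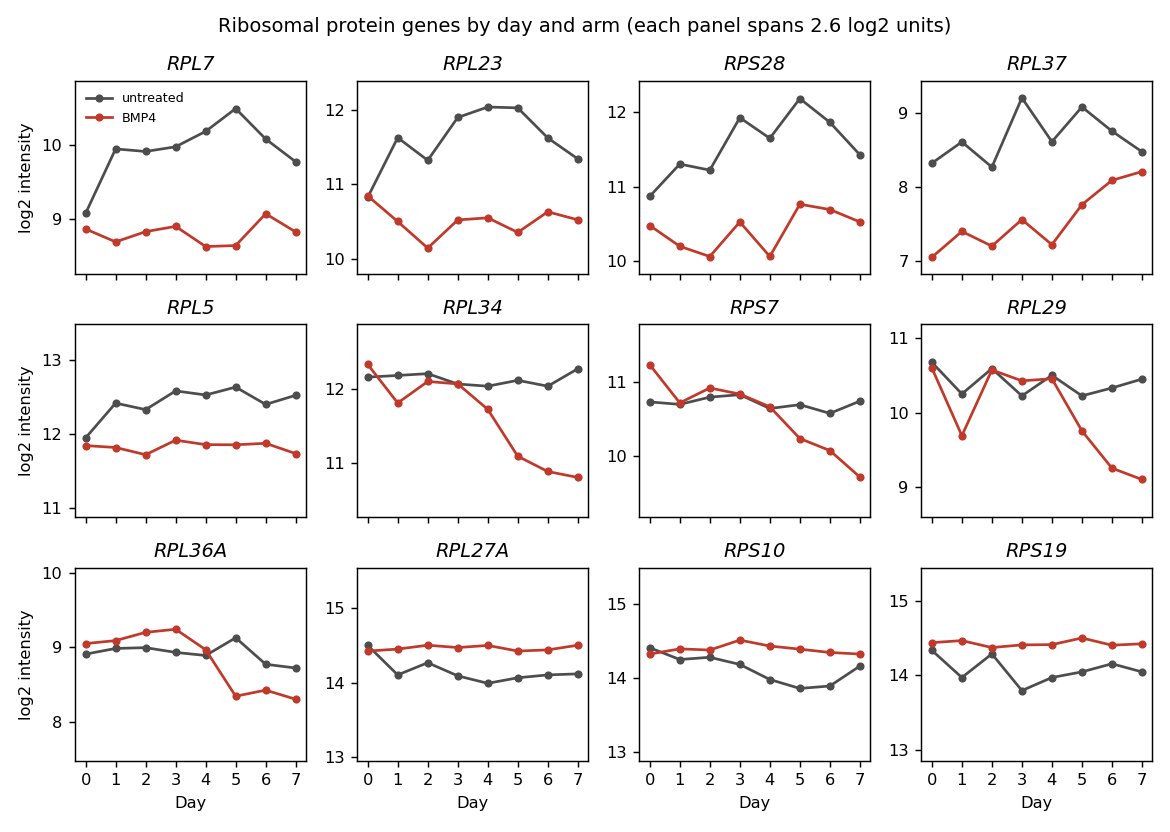
Log2 intensity by day in untreated (grey) and BMP4 (red) cells for 12 ribosomal protein genes, 1 array per point; every panel has the same height in log2 units. RPL7, RPL23 and RPL5 separate from day 1 as the untreated values rise from day 0, RPL34, RPS7, RPL29 and RPL36A fall in the BMP4 arm after day 4, and RPL27A, RPS10 and RPS19 stay near 14.4 under BMP4.

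For many members, lower and higher, the day 0 array of untreated cells stood with the BMP4 arm. It lay nearer the BMP4 mean of days 1 to 7 than the untreated one for 12 of the 15 members lower early (80%, against 39% of all genes lower early) and for 8 of the 11 higher early (72.7%, against 24.8%). Late this held for 18 of the 30 members lower (60%, against 37.1% of the 3566 genes lower late in all) and for 9 of the 15 higher (60%, against 21.5% of the 3659 genes higher late in all). Where the difference between the day 0 arrays was subtracted from the effect, which adds the error of 1 array per arm, no member passed early in limma (2.35% of all genes did), with 11 members at an unadjusted p under 0.05 and a smallest adjusted p of 0.0725. Late, RPL27A and RPS10 stayed higher (8.92% of all genes were higher) and RPL5, RPL7, RPL22, RPL23, RPL34 and RPS7 stayed lower (10.6% of all genes were lower).

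On day 0 itself, with 1 array per arm and no test, RPL14 was higher by 0.55, RPS7 by 0.50 and RPL26 by 0.38 in the BMP4 arm. RPL37 stood at -1.27, RPL35 at -0.43 and RPS28 at -0.39. In size, the day 0 differences of RPL37, RPL14, RPL35, RPS7 and RPL26 were at least as large as their late effects, and that of RPS7 had the opposite sign. RPL35, at -0.31 late, stood at 0.12 with the day 0 difference subtracted.

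Another group of genes was lower late and had a declining slope within the BMP4 arm. RPL34, a large subunit protein, was at 12.18, 12.20 and 12.07 untreated and 11.81, 12.10 and 12.07 under BMP4 on days 1 to 3, where the arms overlapped. On days 4 to 7 it was at 12.04, 12.12, 12.04 and 12.27 untreated and at 11.72, 11.09, 10.89 and 10.81 under BMP4. The untreated arm stayed within 12.04 to 12.27 on days 1 to 7 while the BMP4 arm went down on each day from day 4, and the late change was -0.99 ± 0.15 (adjusted p = 2.82e-05) after -0.16 ± 0.17 early (adjusted p = 0.529). RPL34 was the only member whose late and early effects differed past the threshold, by -0.83 ± 0.23 (adjusted p = 0.0301; 4.31% of all genes were lower by this test and 4.93% higher). That call was lost without any 1 of 9 arrays (untreated days 1, 2, 3, 5 and 7, BMP4 days 2, 5, 6 and 7), with adjusted p of 0.0543 to 0.0840. It was also lost with no filter on low signals (0.0510), with no intensity trend (0.0601) and with days 1 to 2 as the early window (0.0884).

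RPS7, a small subunit protein needed to mature the 18S RNA, took a like course. Its late levels were 10.64, 10.69, 10.57 and 10.74 untreated and 10.66, 10.23, 10.07 and 9.72 under BMP4, after 10.69, 10.79 and 10.82 against 10.71, 10.92 and 10.83 early. Only the BMP4 day 4 array lay within the untreated range, and the late change was -0.49 ± 0.14 (adjusted p = 0.00726). Its BMP4 day 0 array was at 11.23 and its untreated one at 10.73.

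RPL29, a small basic protein of the large subunit, was at 10.50, 10.23, 10.33 and 10.45 untreated and 10.46, 9.76, 9.25 and 9.10 under BMP4 late. Early it was at 10.25, 10.59 and 10.23 untreated and 9.69, 10.58 and 10.43 under BMP4. Its BMP4 day 1 array thus lay below its day 5 array, and its course was not an even decline. The late change was -0.74 ± 0.24 (adjusted p = 0.0136), and the call was lost without BMP4 day 6 (adjusted p = 0.0514) or day 7 (adjusted p = 0.0541). RPL36A, which lines the exit site for tRNA, was at 8.89, 9.13, 8.77 and 8.72 untreated and 8.97, 8.34, 8.42 and 8.30 under BMP4 late, a change of -0.37 ± 0.14 (adjusted p = 0.0318) that followed a difference of 0.21 ± 0.16 early (adjusted p = 0.356). RPS21, a small subunit protein, was at 12.02, 12.06, 11.94 and 12.03 untreated and 12.11, 11.68, 11.54 and 11.38 under BMP4 late, a change of -0.34 ± 0.12 (adjusted p = 0.0245). In each of the 3 genes the BMP4 day 4 array lay within the untreated range or above it, and days 5 to 7 lay below it.

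Within the BMP4 arm, the late window was lower than the early one for 4 members (13.7% of all genes). These were RPL34 at -0.86 ± 0.16 (adjusted p = 8.93e-04), RPL36A at -0.67 ± 0.15 (adjusted p = 0.00337), RPS7 at -0.65 ± 0.15 (adjusted p = 0.00462) and RPS21 at -0.49 ± 0.13 (adjusted p = 0.00987). Only RPS23, a protein of the decoding centre, was higher late than early (12.8% of all genes), at 10.25, 10.24 and 9.93 early and 10.45, 10.53, 10.50 and 10.66 late. Its change was 0.40 ± 0.11 (adjusted p = 0.0137), and without BMP4 day 3 the adjusted p was 0.0678. It was also lost with days 1 to 2 as the early window (0.0826). In untreated cells RPS23 stood at 0.32 ± 0.11 late against early and did not pass (adjusted p = 0.401).

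As a slope over all 8 days, 7 members declined under BMP4 (21.1% of all genes) and 1 rose (18.6% of all genes). RPL34 declined by -0.22 ± 0.03 per day (adjusted p = 1.41e-06), RPS7 by -0.19 ± 0.02 (adjusted p = 1.35e-06) and RPL29 by -0.18 ± 0.04 (adjusted p = 0.00264). The others were RPL36A, RPS15, RPS21 and RPS26, and the member that rose was RPL37. Against the untreated slope, 4 members were lower (13.2% of all genes): RPL34 by -0.22 ± 0.04 per day (adjusted p = 2.44e-04), RPS7 by -0.18 ± 0.03 (adjusted p = 3.87e-04), RPS21 by -0.14 ± 0.03 (adjusted p = 0.00235) and RPL22 by -0.12 ± 0.02 (adjusted p = 0.00133). RPS12 had the higher slope under BMP4 (11.4% of all genes).

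Fewer members passed within untreated cells. No member differed between the late and early windows of the untreated arm in limma (0.0747% of all genes did), with 7 members at an unadjusted p under 0.05. By slope, 2 members rose in untreated cells (1.9% of all genes) and 1 declined (1.49% of all genes). RPL22, a protein on the outside of the large subunit that also binds viral RNA, went from 11.26 on day 0 to 11.89 on day 7, a slope of 0.08 ± 0.02 per day (adjusted p = 0.0125), and RPL32 rose by 0.06 ± 0.01 per day (adjusted p = 0.0288). RPS12, a small subunit protein known in Drosophila for its part in cell competition, went from 14.54 to 14.11, a slope of -0.07 ± 0.02 (adjusted p = 0.0229). Under BMP4 RPS12 ranged from 14.53 to 14.66 and RPL22 from 11.25 to 11.64.

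These slopes rested on few arrays and on the filter. The RPL22 slope was lost without untreated day 0 (adjusted p = 0.0876) or day 7 (0.0711). The RPL32 slope was lost without untreated day 0 (0.177), day 2 (0.0542), day 6 (0.0727) or day 7 (0.0681). The RPS12 slope was lost without untreated day 1 (0.0574) or day 7 (0.130), and its difference between the arms without untreated day 1 (0.0663) or day 7 (0.120) or BMP4 day 1 (0.0534) or day 7 (0.0621). With day as a block the RPS12 slope difference did not pass (0.0597). With no filter on low signals neither it (0.0853) nor the untreated slopes of RPS12 (0.0690) and RPL32 (0.0801) passed, and with the mean of its probes the RPL32 slope was -0.0283 (0.550).

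The members called higher under BMP4 were above untreated cells by at most 0.41 in either window. RPS10, in the head of the small subunit beside the mRNA entry, was at 13.98, 13.86, 13.89 and 14.16 untreated and 14.43, 14.39, 14.35 and 14.32 under BMP4 late. RPL27A, a large subunit protein, was at 13.99, 14.06, 14.10 and 14.12 untreated and 14.50, 14.42, 14.44 and 14.50 under BMP4. Neither gene's late arms overlapped, and both differed by 0.40, with SE 0.07 (adjusted p = 1.69e-04) and 0.06 (adjusted p = 4.37e-05). RPL27A was already higher early, by 0.32 ± 0.07 (adjusted p = 0.00306), while RPS10 stood at 0.19 ± 0.08 (adjusted p = 0.0960). On day 0 RPS10 was at 14.41 untreated and 14.32 under BMP4, and RPL27A at 14.50 and 14.42. The BMP4 arrays therefore lay at or above their own day 0 level and the late untreated arrays lay below theirs.

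RPS19, the small subunit protein most often mutated in Diamond-Blackfan anaemia, was at 13.97, 14.29 and 13.79 untreated and 14.47, 14.37 and 14.41 under BMP4 early. It was higher by 0.40 ± 0.10 early (adjusted p = 0.00602) and by 0.38 ± 0.09 late (adjusted p = 0.00119), from day 0 levels of 14.34 untreated and 14.44 under BMP4. RPLP2, part of the stalk that recruits elongation factors, was at 14.08, 14.29, 14.18 and 14.22 untreated and 14.58, 14.53, 14.53 and 14.53 under BMP4 late, a difference of 0.35 ± 0.06 (adjusted p = 1.37e-04) after 0.28 ± 0.07 early (adjusted p = 0.00759). In both genes every BMP4 array stood above every untreated array of its window, and over the 8 days under BMP4 they ranged only from 14.37 to 14.50 and from 14.46 to 14.58.

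RPS27, RPS29 and RPL14 were higher late by 0.35 each (adjusted p = 5.68e-04, 0.00251 and 0.00642). RPS27 and RPS29 are zinc-binding proteins of the small subunit. RPS27 also passed early, at 0.27 ± 0.08 (adjusted p = 0.0228), a call lost without untreated day 2 (0.0962), untreated day 3 (0.0584) or BMP4 day 2 (0.0898). RPL26L1, a paralogue of RPL26, was at 9.77, 9.74, 9.72 and 9.89 untreated and 10.29, 10.07, 10.21 and 10.04 under BMP4 late and was higher by 0.38 ± 0.10 (adjusted p = 0.00594). Its early difference of 0.41 ± 0.12 (adjusted p = 0.0164) lost its call without untreated day 2 (0.0614), untreated day 3 (0.0529) or BMP4 day 3 (0.0925). With the mean of probes the late calls of RPS29 (0.07, adjusted p = 0.492) and RPL14 (0.08, adjusted p = 0.644) were lost. So were both calls of RPL26L1 (0.19 early, adjusted p = 0.246, and 0.17 late, adjusted p = 0.181). RPS27 turned to -0.23 early, a call in the other direction (adjusted p = 0.0477), and to -0.12 late (adjusted p = 0.168).

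RPS9, RPS3 and RPL4 were the other members furthest above untreated cells early. RPS9 and RPS3 line the entry of the mRNA channel, and RPL4 the wall of the exit tunnel. RPS9 was at 13.77, 13.69 and 13.67 untreated and 14.00, 14.04 and 14.12 under BMP4, a difference of 0.34 ± 0.08 (adjusted p = 0.00483) that was 0.17 ± 0.07 late (adjusted p = 0.0519). RPS3 was at 14.19, 14.20 and 14.11 untreated and 14.42, 14.46 and 14.56 under BMP4, a difference of 0.31 ± 0.08 (adjusted p = 0.00671), and stood at 0.11 ± 0.07 late (adjusted p = 0.173). RPL4 was higher by 0.34 ± 0.10 early (adjusted p = 0.0158), a call lost without untreated day 1 (0.0934) or BMP4 day 3 (0.0644), and by 0.24 ± 0.09 late (adjusted p = 0.0231). With days 1 to 2 as the early window the early calls of RPS19 (adjusted p = 0.0709), RPS9 (0.0626), RPS3 (0.0944), RPLP2 (0.0505), RPS27 (0.0949) and RPL26L1 (0.184) were lost, and with no intensity trend those of RPL4 (0.0566), RPLP2 (0.0636) and RPS27 (0.0982). The difference between the windows did not pass for RPS9, RPS3 or RPL4.

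By place in the ribosome, calls went both ways in the larger groups, and the late counts are to be read against 27.3% of all genes higher and 26.6% lower. Both proteins of the 5S particle were lower in both windows on the brightest probe of each. Of 3 tested proteins of the stalk and its base, RPLP2 was higher late, and RPLP1 and RPL12 did not pass, at -0.12 and 0.12. Of 9 proteins of the exit tunnel and its mouth 2 were higher and 4 lower, and of 12 in the head, decoding site and mRNA channel of the small subunit 5 were higher and 4 lower. Of 16 tested genes of Diamond-Blackfan anaemia 5 were higher and 7 lower, among them RPS19 and RPS10 at 0.38 and 0.40 and RPS28 and RPS7 at -1.27 and -0.49. The groups by place were drawn up after the values were known.

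On their brightest probes, paralogues and the genes they resemble gave different values late. RPL7 changed by -1.34 late, and RPL7L1, whose product works in ribosome assembly, by -0.01 ± 0.09 (adjusted p = 0.915). RPL39 was higher by 0.18 ± 0.06 (adjusted p = 0.0191), and RPL39L, abundant in male germ cells, stood at -0.19 ± 0.10 (adjusted p = 0.101). RPL26 stood at 0.13 ± 0.08 (adjusted p = 0.176) beside the 0.38 of RPL26L1. RPS27 was higher, and RPS27L, a p53 target, stood at -0.20 ± 0.09 (adjusted p = 0.0805). With the mean of probes RPL26L1 stood at 0.17 and RPS27 at -0.12, and neither passed, so these differences depended on the probe. RPL3 was lower by -0.30 ± 0.08 (adjusted p = 0.00381). RPL3L, the form of heart and skeletal muscle, was above the floor on only 3 of 16 arrays, those of BMP4 days 3, 5 and 7. It thus passed the filter only through the BMP4 arm, where it was higher. Its 0.41 ± 0.17 (adjusted p = 0.0521) is a value near background. RPL36A was lower and RPL36AL, which the symbol rule did not take, higher by 0.31 ± 0.07 (adjusted p = 0.00195). No test was made of the difference within a pair.

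Dim members had larger changes than bright ones. Of the 72 members, 48 had a probe in the brightest 1% of the array, at a mean intensity of 7024 or more. In the late window 13 of these 48 were higher (27.1%) and 14 lower (29.2%), shares close to those of all genes (27.3% and 26.6%), with a median size of change of 0.20 (log2), and RPL37A had the largest, at -0.51. Of the 24 dimmer members, 2 were higher (8.33%) and 16 lower (66.7%), with a median size of 0.38. Other genes in the brightest 1% had a median size of 0.26 and all genes 0.41. For a bright probe the deposited value is a rank among few neighbours, and neither scanner saturation nor this limit was tested here.

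**Figure D4:**
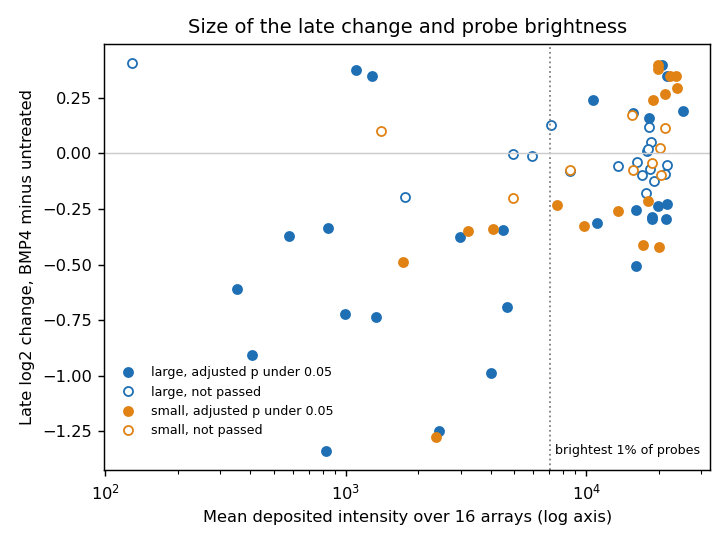
Late log2 change (BMP4 minus untreated) against the mean deposited intensity over 16 arrays (log axis) for 72 ribosomal protein genes, large subunit in blue and small in orange, filled where the adjusted p is under 0.05. Right of the dotted line (7024, the brightest 1% of probes) all changes lie between -0.51 and 0.40, and the changes beyond -1 lie to its left.

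The bright members also varied less under BMP4. Over days 1 to 7, the median SD of the 48 bright members was 0.12 in untreated cells and 0.05 under BMP4, and the untreated SD was the larger in 43 of them (89.6%). For the other 168 genes in the brightest 1% the untreated SD was larger in 81 (48.2%), and for all genes in 30.9%. The dimmer members had medians of 0.14 and 0.16. The arms share no array, and no test was made of this pattern over the members.

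Several members had further probes, which differed in size and at times in sign. In 34 members with more than 1 detected probe, all probes were higher late in 2, all were lower in 18 and signs were mixed in 14, and in 12 the late changes of the probes differed by more than 0.5. The probes of RPL34 gave -0.987 and -1.004, those of RPL29 -0.74 and -0.67 and those of RPS7 -0.49 and -0.36. For RPS27 the brightest probe gave 0.35 and the dimmest -1.17, and for RPL37 they gave -0.91 and 0.15. RPLP1 and RPL9, near 0 on their brightest probes, gave -1.41 and -1.26 on their dimmest. RPS27 and RPS29 each had probes called in opposite directions. The dimmest detected probe was called lower in 17 of the 34 genes and higher in 2, against 15 and 5 for the brightest probes of the same genes. No such counts were made for other genes with several probes, so whether these patterns are particular to the members was not tested.

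Ribosomal protein genes have many pseudogene copies in the human genome, and a probe can bind a copy's transcript or 1 form of the mRNA. Which transcript each probe binds was not tested. The lower values of RPL7, RPL23, RPS28 and RPL5 each rest on 1 detected probe.

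**Figure D5:**
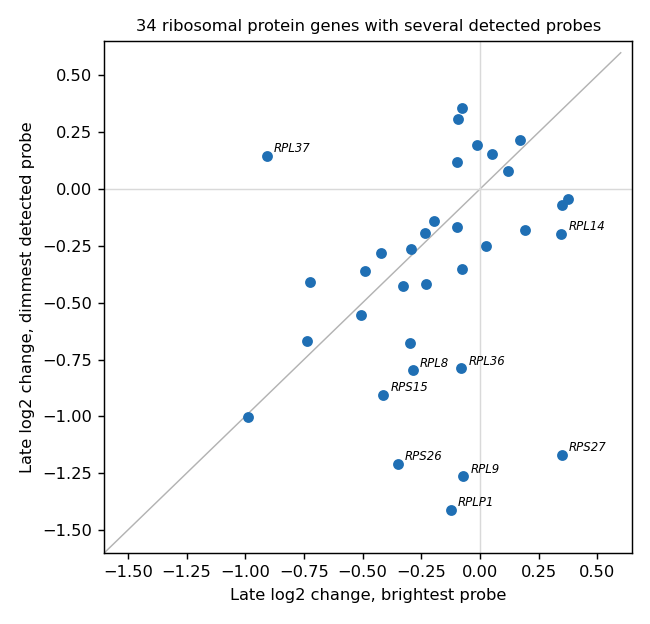
Late log2 change of the dimmest detected probe against that of the brightest probe, for 34 ribosomal protein genes with several detected probes; the line marks equal values and genes far from it are named. RPL34 lies on the line near -1, while RPS27, RPLP1 and RPL9 fall more than 1 below it and RPL37 lies 1.06 above it.

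Genes that make and serve ribosomes were counted beside the members, on lists chosen with earlier results of these data known. Late, 27.3% of all genes were higher and 26.6% lower. Among 32 tested ribosome assembly factors 1 was higher and 17 lower late, with a median of -0.34. NOP56, a core protein of the particles that methylate ribosomal RNA, was at 12.41 ± 0.15 untreated and 11.28 ± 0.48 under BMP4 (SD, n = 4 arrays) with no overlap, a change of -1.12 ± 0.18 (adjusted p = 4.47e-05). RRS1 and NOLC1, both nucleolar, changed by -0.90 ± 0.27 (adjusted p = 0.0103) and -0.69 ± 0.18 (adjusted p = 0.00392). Early, 2 assembly factors were higher and 1 lower (16.1% and 13.3% of all genes). Of 15 genes of the RNA polymerase I machinery none was higher and 4 were lower late (26.7%, the share of all genes), and RRN3, which brings the polymerase to the ribosomal DNA, changed by -1.16 ± 0.19 (adjusted p = 6.79e-05). TAF1D and TAF1A, subunits of its promoter factor, stood at -0.99 and -0.54.

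Mitochondrial ribosomal protein genes, which build a separate ribosome, gave 11 higher and 28 lower of 76 late, with MRPL42 at -1.11, MRPS34 at -1.07 and MRPL57 at -1.05. Their median of -0.05 lay between those of all genes and of the cytosolic members. Of 14 other genes listed as having TOP mRNAs, most but not all of them translation factors, 4 were higher and 4 lower (28.6% each, near the shares of all genes). NAP1L1 was at -1.31, HNRNPA1 at -0.75 and PABPC1 at -0.34, and the tracts of this list were not checked here. Of 9 host genes of small nucleolar RNAs none was higher and 4 were lower, with SNHG12 at -0.82, SNHG7 at -0.59 and SNHG8 at -0.53. Of the 4 cytosolic ribosomal genes the symbol rule misses 2 were tested, RPL36AL as above and FAU, which carries the protein of the small subunit fused to a ubiquitin-like one, at -0.02 ± 0.08 (adjusted p = 0.882).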

How the data were processed

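Total RNA of 16 samples was made into biotinylated cRNA for Illumina arrays, per the labels' protocols. The authors' deposited intensity values are linear and, from the values, quantile normalized between arrays; no source used here names the scanner or its software. Depth has no meaning for arrays, and precision is limited by their number. A non-normalized table was also deposited. Its 32 value columns match no label and were not used, so the planned use of detection p-values was not possible.

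Background was estimated from the deposited intensities (mode 117, SD 7.65; floor 134, the 99th percentile of mirrored values) and corrected by normexp, then log2 was taken after an offset of 16. Of 47323 probes 30113 have 1 gene symbol, 8 several and 17202 none. Genes were read from the brightest probe, and 13395 were above the floor on at least 3 arrays. One limma fit (limma 3.58.1, R 4.3.3) held a mean per arm and window, another a slope per day in each arm, with an intensity trend and two-sided p-values adjusted by Benjamini-Hochberg over all genes tested. On simulated arrays the late comparison, over 13395 genes, recovered 25% of 100 genes changed by 0.5 (log2) and 83% of 100 changed by 1, with 5 false calls. Far fewer genes were changed there than were called late in the data (27.3% higher and 26.6% lower). The adjusted threshold therefore differs, and these rates may not carry over.

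The members, gene lists and groups by place in the ribosome were chosen with earlier results of these data known. Named were the 8 largest differences each way past the threshold in each window, the 3 largest each way for the other tests and day 0, paralogue pairs, and the 3 largest late changes past the threshold in each other list. RPL11, RPL12, RPLP1, RPL9, RPS15, RPS26, RPS21 as a change within the BMP4 arm, RPL22 as a slope difference and FAU were named after their values were seen. No 2 arrays were identical. Alternatives were background correction, offset, housekeeping scaling, probe choice, filter, day as a block, day 0 subtraction, moderation, window limits and each array left out.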

Additional observations from a re-analysis of the deposited data

Results flagged for a closer look

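RPLP2 on BMP4 day 4 was at 14.58, apart from the other late BMP4 arrays at 14.53 to 14.53. RPL5 on BMP4 day 7 was at 11.73, apart from 11.85 to 11.87. These are 2 of 50 groups tested for a far sample, and chance gives about 1 in 20. The effect of BMP4 on RPL34 differed between the late and early windows by -0.83. The slope per day differed between the arms by -0.22 for RPL34, -0.18 for RPS7, -0.14 for RPS21 and 0.07 for RPS12.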

How the results depend on the processing

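Of 881 values of named genes under alternatives 779 kept their call, 87 lost it and 15 changed sign. The alternatives of no background correction, an offset of 50, housekeeping scaling and a filter on all 16 arrays moved no count of members by more than 1.5 times and turned no named gene. With the mean of a gene's probes, 12 members changed within the BMP4 arm, 14 had a BMP4 slope and 10 a slope difference. With no filter, 7 were higher early, 0 differed between windows and 1 had an untreated slope. With the replicate block by day, 2 differed between windows, no other count moved beyond 1.5 times, and the slope difference of RPS12 lost its call (adjusted p = 0.0597). Arrays of the same day share only the day: their deviations from the window means correlated at -0.037 to 0.284, above 0.1 on 2 of 7 days, and 2 of 7 arrays correlated best with their own day. With day 0 subtracted, 0 were higher and 0 lower early, and 2 higher and 6 lower late. With no intensity trend, 5 were higher and 9 lower early and 0 differed between windows. With days 1 to 2 as the early window, 2 were higher early and 0 differed between windows. With days 5 to 7 as the late window, 6 differed between windows and 8 changed within the BMP4 arm. Without day 0, 1 had an untreated slope. With the dimmest detected probe, chosen after seeing the data, 2 differed between windows, 12 changed within the BMP4 arm, 15 had a BMP4 slope and 12 a slope difference, and the subunit balance was -0.0607 early and -0.0784 late.

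With the mean of probes RPS27 turned to -0.23 early and -0.12 late and the RPL32 untreated slope to -0.0283. With the dimmest probe RPS27 was -1.22 and -1.17, RPL26L1 -0.0331 and -0.0432, RPL37 0.18 and 0.15 (early and late), RPS29 -0.0715 and RPL14 -0.20 (late), and the slopes of RPL32 (untreated) -0.0495 and RPL37 (BMP4) -0.0600. With day 0 subtracted RPL14 was -0.21 and RPL37 0.36 late. The cause was not tested.

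Leaving out 1 array at a time gave 6 to 10 members higher and 10 to 13 lower early, 12 to 15 and 23 to 30 late, 0 to 5 differing between windows, 4 to 8 changing within the BMP4 arm, 0 to 0 in untreated drift, 6 to 9 BMP4 slopes, 4 to 8 slope differences and 1 to 3 untreated slopes. The subunit balance ranged from -0.0968 to -0.0763 early and -0.127 to -0.103 late. Early higher calls moved beyond 1.5 times without untreated day 1 (7), untreated day 2 (7) or BMP4 day 3 (6), changes within the BMP4 arm without BMP4 day 4 (8), slope differences without untreated day 6 (8), differences between windows without untreated day 4 (3), BMP4 day 4 (5) or any of the 9 arrays named above for RPL34 (0), and untreated slopes without untreated day 0 (1). The single array per arm and day limits every comparison.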

Other observations

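Regulators and partners of ribosome production were called in both directions late, where 27.3% of all genes were higher and 26.6% lower. Of 16 tested genes of the MYC, p53 and TOR circuits 4 were higher and 3 lower. CDKN1A, the cell cycle inhibitor induced by p53, was higher by 1.71 ± 0.28 (adjusted p = 7.01e-05 in limma) and RPS6KB2, a kinase of ribosomal protein S6, by 1.37 ± 0.10 (adjusted p = 1.85e-08), while DDIT4, an inhibitor of TOR signalling, changed by -1.39 ± 0.45 (adjusted p = 0.0138). Of 18 general initiation factors 5 were higher and 5 lower, with EIF1AX at -1.59, EIF5B at -0.85 and EIF2B5 at 0.82. Of 18 housekeeping genes other than ribosomal proteins 5 were higher and 4 lower, with HPRT1 at -1.10, YWHAZ at 0.81 and VCP at 0.73.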
